A study of Homo sapiens with 6 samples.

Results

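The plasminogen activators, matrix metalloproteases (MMPs) and their inhibitors were described here through 9 genes, PLAU, PLAUR, PLAT, SERPINE2, MMP1, MMP7, MMP14, TIMP1 and TIMP2, taken by symbol from the 23024 genes of the deposited expression values. All 9 were listed and all 9 passed the filter on low values, which asked for an average of 1 FPKM or more across all 6 libraries (FPKM scales a gene's fragments by its length and by the library's total). The libraries came from 5637 cells, an established line of human bladder carcinoma. Of them 3 carry the name NC, with the genotype given as WT, and 3 are named sh-RAD51C, with the genotype given as RAD51C knockdown, an shRNA against a gene of homologous recombination. RNA came from transfected cells, per the labels' protocols; the hairpin, the meaning of NC, the time of harvest and whether libraries of a group were separate cultures were not stated there. The p-values below rest on the scatter of these libraries, whether technical or biological.

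Urokinase (PLAU) and tissue-type plasminogen activator (PLAT) are secreted serine proteases that cut plasminogen into plasmin, a broad protease that degrades fibrin and activates some pro-MMPs. Urokinase acts at the cell surface when held by its receptor, encoded by PLAUR, and serpins such as SERPINE2 trap the activators. MMPs are zinc enzymes made as inactive precursors that cleave collagen and other matrix and surface proteins, and the tissue inhibitors (TIMPs) bind their active sites. In bladder carcinoma these proteins are known for their place in matrix turnover and invasion.

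RAD51C itself measured 14.7, 13.2 and 13.6 FPKM in NC libraries 1, 2 and 3 and 3.51, 3.09 and 2.95 FPKM in sh-RAD51C libraries 1, 2 and 3, so every sh-RAD51C library was below every NC library. Library totals inferred from the steps between values were 36068282 to 38079825 reads. Epithelial markers were present in both groups: 12 of 14 averaged at least 1 FPKM (5 called higher and 7 lower, with sums of 3420 to 3541 FPKM per NC library and 2870 to 2975 FPKM per sh-RAD51C library), KRT19 at 1074 ± 21.4 and 682 ± 13.8 FPKM (SD, n = 3) in NC and sh-RAD51C; the uroplakin genes UPK2 and UPK3A reached at most 0.228 and 0.0242 FPKM in any library. Of 9 fibroblast markers, which matter here because fibroblasts also make MMPs and TIMPs, 8 were listed and 2 reached a mean of 1 FPKM, COL1A1 (called lower) and THY1 (called higher). The fibroblast markers summed to 14.6 to 14.9 FPKM per NC library and 12.1 to 12.9 FPKM per sh-RAD51C library, while COL1A2 and DCN were at or near 0. All 7 endothelial markers and the leukocyte gene PTPRC were below 1 FPKM in each library, and CD14 fell from 1.57 ± 0.156 to 0.573 ± 0.334 FPKM. The part of these markers in the results below was not tested. These are bulk RNA values, in which fewer cells that make a transcript and less of it per cell cannot be told apart.

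Among the 9 genes, the urokinase pair PLAU and PLAUR and the inhibitor TIMP2 were higher in sh-RAD51C, and PLAT, SERPINE2, MMP1, MMP7 and MMP14 were lower. TIMP1 was not called. A call required an adjusted p below 0.05 (limma with Benjamini-Hochberg adjustment over the 11152 genes tested). The count of 8 called members, 3 higher and 5 lower, stands beside a background in which 49.4% of all genes tested were called, 23.2% higher and 26.2% lower. NC and sh-RAD51C libraries did not overlap for the same 8 members, against 58.4% of all genes tested. The median log2 fold change of the 9 genes was -0.16, and that of all genes tested was -0.01.

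**Figure D1:**
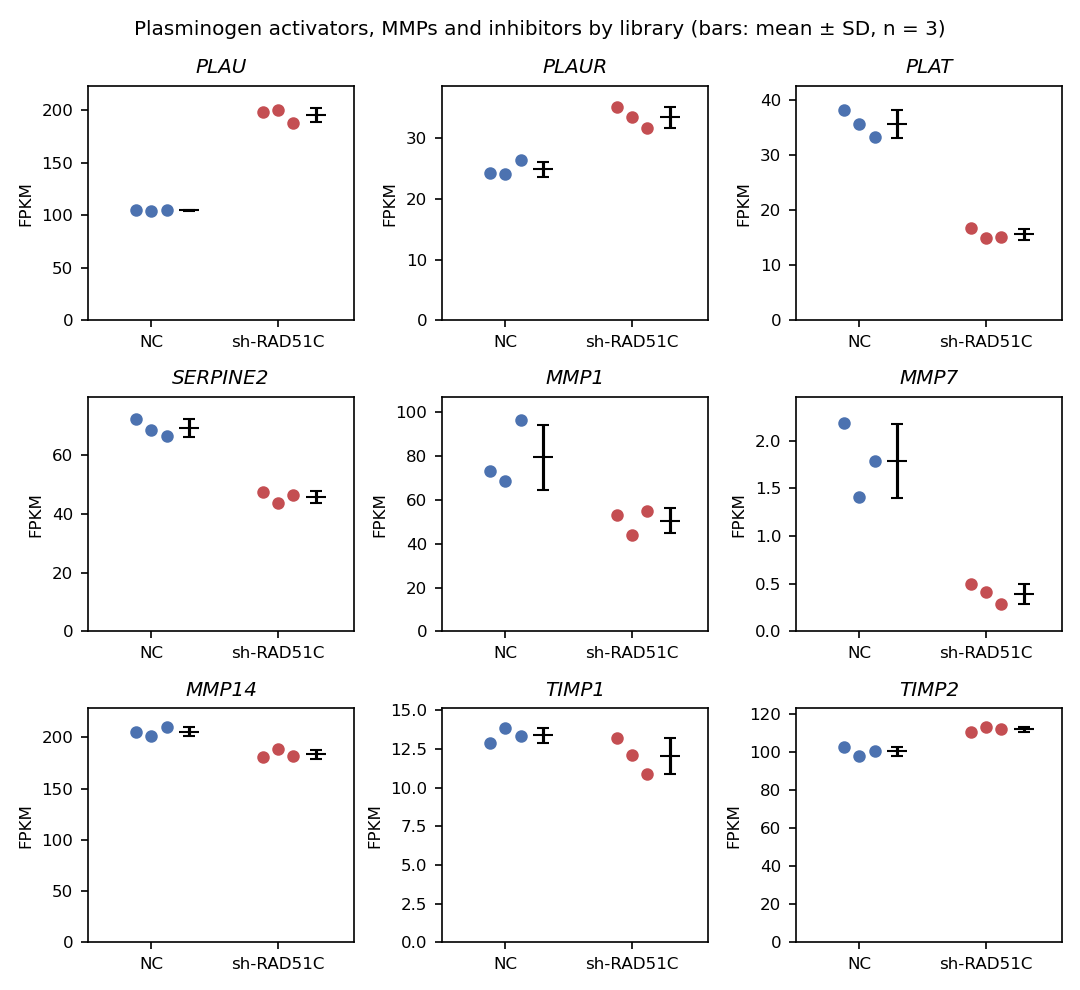
Level of each of the 9 genes in FPKM (vertical axes from 0, a separate scale per panel), with 1 point per library of NC (blue) and sh-RAD51C (red) and the mean ± SD of 3 libraries in black. PLAU sits near 104 FPKM in NC and between 188 and 200 FPKM in sh-RAD51C, PLAT falls from above 33 to below 17 FPKM, and TIMP1 overlaps between groups.

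PLAU nearly doubled. Its level was 104.9, 104.0 and 104.6 FPKM in NC 1, 2 and 3 and 197.8, 199.6 and 187.8 FPKM in sh-RAD51C 1, 2 and 3. The NC libraries lay within 1 FPKM of each other, and all sh-RAD51C libraries lay far above them. The mean rose 1.87-fold, from 104 ± 0.494 to 195 ± 6.38 FPKM (SD, n = 3). On the log2(FPKM + 1) scale the change was 0.89 ± 0.035 (SE), with a limma adjusted p = 1.29e-08. Between 10492 and 20883 inferred reads per library lay behind these values, so counting error was small: in NC the coefficient of variation was 0.472%, no more than the 0.965% that counting alone gives. The gene (ENSG00000122861.15) spans 73909177 to 73917497 of chromosome 10, plus strand (GENCODE 29, GRCh38), and 31.1% of its exon bases overlap C10orf55 on the other strand. Strand use in counting is not stated, and C10orf55 itself was at 1.63 ± 0.296 and 1.79 ± 0.267 FPKM in NC and sh-RAD51C and was not called.

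PLAUR, the gene of the urokinase receptor, rose as well. NC 1, 2 and 3 held 24.2, 24.2 and 26.4 FPKM, and sh-RAD51C 1, 2 and 3 held 35.2, 33.5 and 31.8 FPKM. The highest NC library was thus below the lowest sh-RAD51C library. The rise was 1.34-fold (log2 fold change 0.41 ± 0.049 SE, limma adjusted p = 4.32e-05, 3 libraries per group). PLAUR (ENSG00000011422.11) occupies 43646095 to 43670547 of chromosome 19, minus strand, with no exon shared with another gene. Within a library, the ratio of PLAUR to PLAU was 0.239 ± 0.0119 in NC and 0.172 ± 0.0054 in sh-RAD51C (SD, n = 3), and no library of either group crossed into the range of the other.

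PLAT went the opposite way to PLAU. It read 38.2, 35.6 and 33.2 FPKM in NC 1, 2 and 3 against 16.7, 14.9 and 15.2 FPKM in the sh-RAD51C libraries, so the groups were well apart. Its mean fell 2.29-fold to 15.6 ± 0.976 FPKM, and the log2 fold change, -1.14 ± 0.057 (SE), had a limma adjusted p = 7.34e-08 (3 libraries per group). It was the largest of the 9 in size with the added 1 FPKM; with a pseudocount of 0.1 it was -1.19 and MMP7 was at -1.94. PLAT (ENSG00000104368.17) is a minus-strand gene of chromosome 8, from 42175233 to 42207724. The ratio of PLAU to PLAT within a library was 2.94 ± 0.202 in NC and 12.5 ± 0.793 in sh-RAD51C (SD, n = 3).

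SERPINE2 encodes protease nexin 1, a serpin that inhibits thrombin, urokinase and tissue-type activator. Libraries NC 1, 2 and 3 gave 72.4, 68.6 and 66.6 FPKM, and sh-RAD51C 1, 2 and 3 gave 47.6, 43.6 and 46.5 FPKM. Every sh-RAD51C library was lower, by 1.51-fold in the mean (log2 fold change -0.58 ± 0.044 SE, limma adjusted p = 1.51e-06, n = 3 per group). The gene (ENSG00000135919.12) lies on the minus strand of chromosome 2 from 223975112 to 224039319.

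Enzyme and inhibitor moved apart for PLAU and SERPINE2, whose ratio within a library was 1.51 ± 0.0605 in NC and 4.26 ± 0.282 in sh-RAD51C (SD, n = 3). The ratio of PLAT to SERPINE2 was 0.515 ± 0.015 in NC and 0.34 ± 0.0124 in sh-RAD51C without overlap. These ratios are of transcript levels per length and were not tested. They do not stand for every inhibitor of the system. SERPINB2, another inhibitor, rose 2.05-fold from 27.7 to 56.9 FPKM, beside the 1.87-fold rise of PLAU.

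The other genes of the plasminogen system were taken from a list of 24 that includes the 4 members above. Of these 23 were listed and 16 tested, with 7 called higher, 3 lower and 6 not called, a median log2 fold change of 0.04. The share called was 62.5%, against 49.4% of all genes tested. The inhibitors SERPINB2 and TFPI2, a Kunitz inhibitor of plasmin, were higher: SERPINB2 rose 2.05-fold to 56.9 ± 2.67 FPKM and TFPI2 rose 2.51-fold, from 7.63 ± 0.587 to 19.1 ± 1.52 FPKM. SERPINB2 shares 19.9% of its exon bases with SERPINB10 on the same strand, which reached at most 0.121 FPKM.

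Of genes for plasminogen-binding surface proteins, PLGRKT, a plasminogen receptor, rose 1.26-fold and ANXA2 rose 1.19-fold to 438 ± 14.3 FPKM, whereas S100A10, the partner of annexin A2, and ENO1 had log2 fold changes of 0.04 and 0.01 and were not called. THBD, which encodes the thrombin receptor thrombomodulin, rose 1.3-fold. LRP1, the endocytic receptor that clears activator and serpin complexes, fell from 7.22 ± 0.176 to 3.02 ± 0.345 FPKM, 2.4-fold (log2 fold change -1.04, limma adjusted p = 5.57e-07), while its chaperone LRPAP1 was not called. PLG, the gene of plasminogen itself, was at 0 and 0.00411 FPKM and was not tested. The largest limma adjusted p among the 10 called genes was 0.000919, for PLGRKT.

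**Figure D2:**
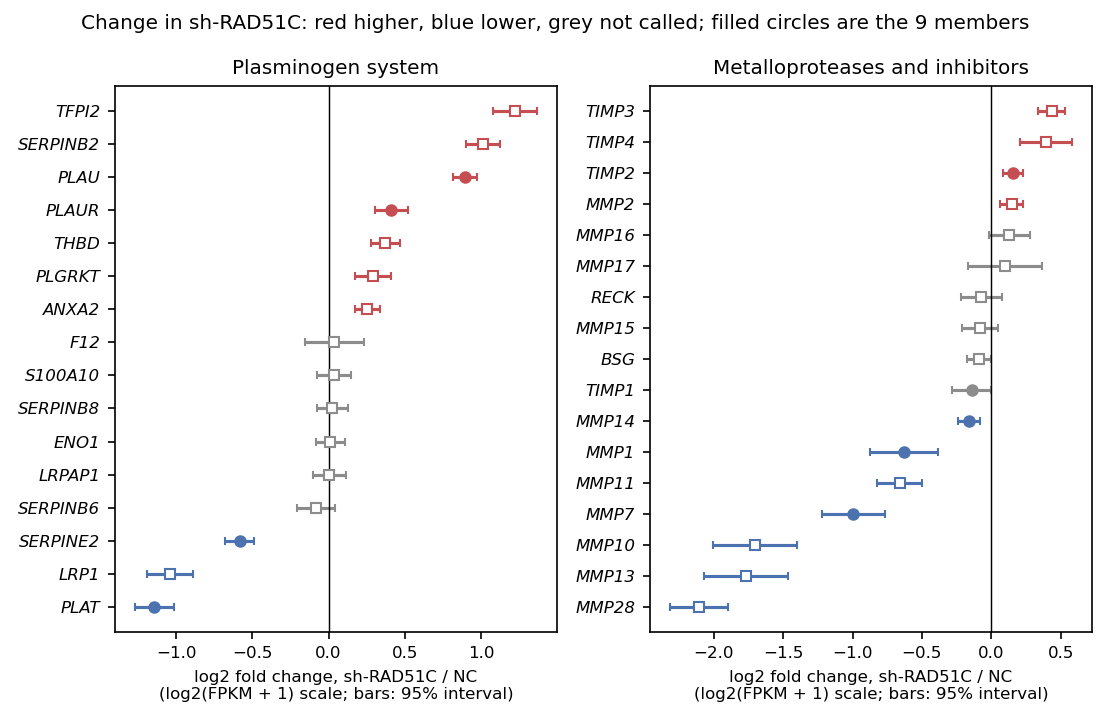
Log2 fold change of sh-RAD51C over NC on the log2(FPKM + 1) scale, with 95% intervals from limma, for the tested genes of the plasminogen list (left) and of the metalloprotease list (right). Red marks genes called higher, blue genes called lower and grey genes not called; filled circles are members and open squares the others. PLAT and LRP1 lie lowest on the left, and MMP28, MMP13 and MMP10 lowest on the right, below every member.

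MMP14, the membrane-anchored collagenase that also activates pro-MMP2, was the most abundant of the 9 genes in NC. Values were 205.2, 201.2 and 210.1 FPKM in NC 1, 2 and 3 and 180.6, 188.6 and 181.6 FPKM in sh-RAD51C 1, 2 and 3. The groups did not overlap, but the fall was small, 1.12-fold (log2 fold change -0.16 ± 0.035 SE, limma adjusted p = 0.00288, n = 3 per group). Its locus (ENSG00000157227.12) is on chromosome 14 from 22836557 to 22849027, plus strand.

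MMP1, interstitial collagenase, varied most among the well-expressed members. The NC libraries 1, 2 and 3 read 73.1, 68.5 and 96.4 FPKM, with NC 3 standing above the other two, and sh-RAD51C 1, 2 and 3 read 52.9, 44.1 and 54.7 FPKM. All sh-RAD51C values lay below all NC values. The coefficient of variation in NC was 18.8%, against 1.31% from counting alone, so the spread was wider than counting error. The mean fell 1.57-fold, which is -0.63 ± 0.111 (SE) on the log2 scale (limma adjusted p = 0.00074, n = 3 per group), and without NC replicate 3 the change was -0.48 (adjusted p = 0.00061). MMP1 (ENSG00000196611.4) lies on chromosome 11 from 102789920 to 102798160, minus strand, and shares 7.61% of its exon bases with WTAPP1 on the other strand.

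MMP7, matrilysin, an epithelial protease without the hemopexin domain of most MMPs, was the lowest of the members. It measured 2.18, 1.4 and 1.78 FPKM in NC 1, 2 and 3 (88, 59 and 75 inferred reads) and 0.493, 0.409 and 0.282 FPKM in sh-RAD51C 1, 2 and 3 (21, 17 and 12 inferred reads). It passed the filter only through the NC libraries, so that a difference was built into its being tested. The mean was 4.53-fold lower in sh-RAD51C. The fitted log2 change, -0.99 ± 0.103 (SE, limma adjusted p = 1.59e-05, n = 3 per group), understates this because of the added 1 FPKM, and it was -1.94 with a pseudocount of 0.1. Counting alone gives a coefficient of variation of 24.5% in sh-RAD51C, where the observed one was 26.9%. Without any filter MMP7 was called as well (limma adjusted p = 0.00264).

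MMP1 and MMP7 belong to a cluster of 9 MMP genes on chromosome 11, within 435 kb from 102520508 to 102955734 (GRCh38). Of these 8 were listed and 4 tested, MMP7, MMP10, MMP1 and MMP13, and all 4 were called lower, beside 26.2% of all genes tested. MMP7 is among them only through its NC level, as given above. MMP10, stromelysin 2, read 15.3, 15.9 and 19.1 FPKM in NC 1, 2 and 3 and 5.69, 3.22 and 4.68 FPKM in sh-RAD51C 1, 2 and 3. MMP13, collagenase 3, read 10.8, 10.1 and 10.3 FPKM in NC and 2.73, 1.51 and 3.01 FPKM in sh-RAD51C. In both genes all sh-RAD51C libraries were below all NC libraries, and sh-RAD51C 2 was the lowest, as it was for MMP1. The falls were 3.7-fold for MMP10 and 4.31-fold for MMP13 (limma adjusted p = 2.36e-06 and 1.8e-06, n = 3 per group). MMP20, MMP8, MMP3 and MMP12 of the cluster averaged at most 0.0915 FPKM in either group.

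**Figure D3:**
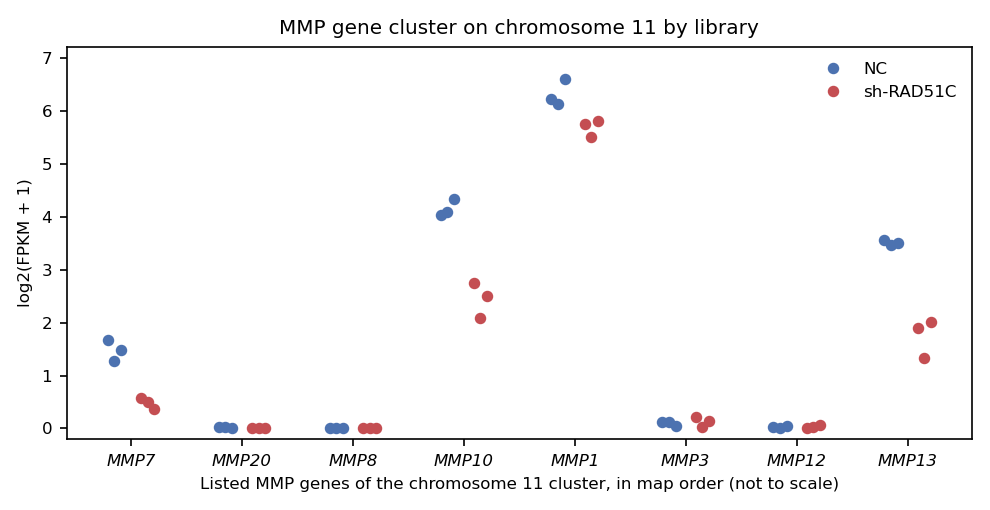
Level as log2(FPKM + 1) in each library of NC (blue) and sh-RAD51C (red) for the 8 listed MMP genes of the chromosome 11 cluster, in map order. MMP7, MMP10, MMP1 and MMP13 are lower in all 3 sh-RAD51C libraries, and the other 4 genes lie near 0 in both groups.

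The start-site regions of MMP7 and MMP10 are shown because both genes of the cluster fell and both carry, 67 bases before the start, the AP-1 letters TGANTCA, followed by a TATA box (TATAAA) 30 and 31 bases before it. The sequences are from RefSeq (GRCh38.p14), minus strand, written 5′ to 3′ from 250 to 11 bases before the start, with the AP-1 and TATA letters in capitals. The first spans chr11:102530758-102530997 and the second chr11:102780639-102780878.
MMP7: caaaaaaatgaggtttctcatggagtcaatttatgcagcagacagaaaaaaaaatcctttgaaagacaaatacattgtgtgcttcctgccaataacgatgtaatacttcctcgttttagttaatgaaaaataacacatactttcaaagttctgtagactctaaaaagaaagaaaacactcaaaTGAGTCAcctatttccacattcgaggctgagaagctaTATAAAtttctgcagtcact
MMP10: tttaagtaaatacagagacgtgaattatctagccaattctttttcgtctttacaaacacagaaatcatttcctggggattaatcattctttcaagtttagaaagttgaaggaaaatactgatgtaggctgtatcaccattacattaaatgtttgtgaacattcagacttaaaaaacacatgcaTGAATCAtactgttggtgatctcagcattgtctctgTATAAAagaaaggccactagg
The same AP-1 letters occur before genes that rose. They lie 186 bases before the start of PLAUR (chr19:43670339-43670365, minus strand), 102 before that of SERPINB2 (chr18:63887593-63887619, plus strand) and 87 before that of TFPI2 (chr7:93890824-93890850, minus strand), shown with 10 bases on either side and the AP-1 letters in capitals. In GENCODE 29 the PLAUR stretch lies inside an exon of a longer PLAUR transcript. The other 2 stretches also lie within the GENCODE 29 spans of their own genes, SERPINB2 (63871692 to 63903890) and TFPI2 (93885396 to 93890991). The starts used here are thus those of RefSeq, and whether these 2 stretches fall in an exon is not given.
PLAUR: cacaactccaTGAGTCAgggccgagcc
SERPINB2: agtaaaatgtTGAATCActcaaaggac
TFPI2: tccccgtgcaTGAATCAgccacccctc
SERPINB2 also has TATAAA 30 bases before its start, so AP-1 letters followed by a TATA box stood before a gene that rose as well. Among the genes searched, the AP-1 letters thus stood before genes of either direction. The search was made by symbol for the members, SERPINB2, TFPI2, MMP10, MMP11 and TIMP3, of which MMP11 and TIMP3 gave no AP-1 match. Whether RefSeq windows exist for MMP11 and TIMP3 was not recorded, so a missing window cannot be told from one without a match. MMP13 was not searched. Searched on both strands (its letters read the same on each), TGANTCA was found in the 250 bases before 6.57% of 35116 RefSeq starts, and TATAAA in 10.7%. RefSeq windows matched 6 of the 9 members, all but PLAT, MMP1 and TIMP2, giving 8 windows. In these the AP-1 letters were found for PLAUR and MMP7 but not for PLAU, SERPINE2, MMP14 or TIMP1. The ETS letters GAGGAAG were found in these windows for PLAU and MMP7 (11.2% of all windows), while the TEAD letters GGAATG (11.9%) and the NF-kB motif (1.73%) were found in none. The promoters printed were chosen after these matches were seen, and a match is a description of letters, not of a bound site.

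Across the family, MMP28 and MMP11 fell as well and MMP2 rose. Of 23 MMP genes in the list 21 were listed and 11 tested: 1 was called higher, 7 lower and 3 were not called, with log2 fold changes from -2.10 to 0.14 and a median of -0.63. Over all genes tested 23.2% were called higher and 26.2% lower, and the 7 lower include MMP7, which passed the filter through NC alone. MMP28, epilysin, fell furthest, from 10.9 ± 0.388 to 1.79 ± 0.417 FPKM, 6.1-fold (limma adjusted p = 3.51e-08). MMP11, stromelysin 3, was 1.98-fold lower at 1.43 ± 0.18 FPKM. MMP2, gelatinase A, rose 1.11-fold from 44.5 ± 1.14 to 49.3 ± 0.981 FPKM (limma adjusted p = 0.00638). MMP15, MMP16 and MMP17, which like MMP14 are membrane types, had log2 fold changes of -0.08, 0.13 and 0.09 and were not called. For MMP16 (limma adjusted p = 0.137) all sh-RAD51C libraries were still above all NC libraries. MMP9, gelatinase B, was at 0.0192 and 0.0305 FPKM and was not tested. Summed over the 21 listed genes, MMP transcripts came to 381 ± 21.8 FPKM in NC and 303 ± 4.23 FPKM in sh-RAD51C, and MMP14 made up 54.1% ± 1.95 and 60.6% ± 2.29 of that sum (SD, n = 3).

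TIMP2, which inhibits MMPs and also bridges MMP14 to pro-MMP2, was slightly higher in sh-RAD51C. NC libraries 1, 2 and 3 held 102.6, 97.8 and 100.6 FPKM and sh-RAD51C libraries 1, 2 and 3 held 110.4, 113.2 and 111.8 FPKM. The groups were apart, and the rise was 1.11-fold (log2 fold change 0.16 ± 0.034 SE, limma adjusted p = 0.00288, n = 3 per group). TIMP2 (ENSG00000035862.12), on chromosome 17 from 78852977 to 78925387, minus strand, shares 10.03% of its exon bases with other genes, among them CEP295NL, which reached at most 0.220 FPKM.

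TIMP1 showed no call. It read 12.9, 13.9 and 13.4 FPKM in NC 1, 2 and 3 and 13.2, 12.1 and 10.9 FPKM in sh-RAD51C 1, 2 and 3. Library sh-RAD51C 1 fell inside the NC range and the other two below it. The log2 fold change was -0.14 with a 95% interval from -0.28 to -0.0039 (limma adjusted p = 0.0823, n = 3 per group), and without sh-RAD51C replicate 1 it was -0.20 and was called lower (adjusted p = 0.0134). Without sh-RAD51C replicate 3 it was -0.076 (adjusted p = 0.294). The gene (ENSG00000102265.11) is on chromosome X from 47582313 to 47586789, plus strand.

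The remaining TIMP genes were both called higher. TIMP3, which binds the matrix, rose 1.36-fold from 41.6 ± 2.39 to 56.5 ± 0.862 FPKM (limma adjusted p = 1.21e-05), and TIMP4 rose 1.48-fold to 2.69 ± 0.257 FPKM (adjusted p = 0.00267). The TIMP sum was 157 ± 3.72 FPKM in NC and 183 ± 1.59 FPKM in sh-RAD51C (SD, n = 3). RECK, a membrane-anchored MMP inhibitor, and BSG, an inducer of MMPs, were not called (log2 fold changes -0.07 and -0.09). For BSG (limma adjusted p = 0.0718) all sh-RAD51C libraries were still below all NC libraries. Groups did not overlap for 58.4% of all genes tested. In all, the metalloprotease list of 30 genes had 17 tested, 4 higher, 7 lower and 6 not called, with a median of -0.09; MMP7 was its only gene to pass the filter through NC alone. The share called was 64.7%, against 49.4% of all genes tested.

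MMP14 and TIMP2 changed in opposite directions, and their ratio was 2.05 ± 0.0452 in NC and 1.64 ± 0.0222 in sh-RAD51C (SD, n = 3) with no overlap. MMP7 against TIMP1 stood at 0.135 ± 0.0341 and 0.0324 ± 0.00585, also without overlap, at the low read counts given above. For MMP1 against TIMP1 the values were 5.94 ± 1.16 and 4.23 ± 0.716, and the groups overlapped because NC 2 lay below sh-RAD51C 3.

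**Figure D4:**
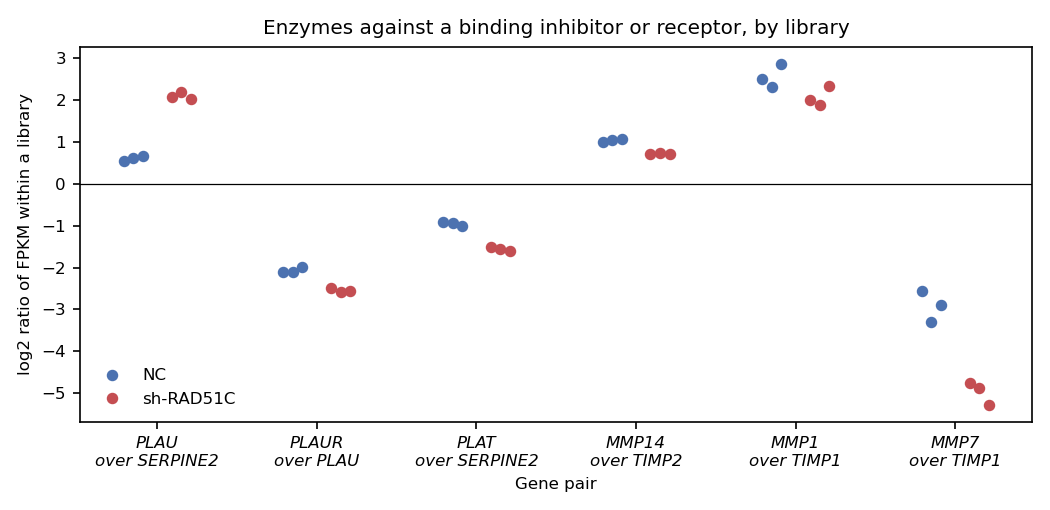
Log2 ratio of FPKM between the genes of 6 pairs within each library of NC (blue) and sh-RAD51C (red), with a line at 0 where both genes are equal. PLAU over SERPINE2 is higher in every sh-RAD51C library, MMP1 over TIMP1 overlaps, and the other 4 pairs are lower in every sh-RAD51C library.

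The order of levels per length shifted at 2 places. In NC it ran MMP14, PLAU, TIMP2, MMP1, SERPINE2, PLAT, PLAUR, TIMP1, MMP7, and the ranges of neighbours overlapped only for MMP1 and SERPINE2. In sh-RAD51C it ran PLAU, MMP14, TIMP2, MMP1, SERPINE2, PLAUR, PLAT, TIMP1, MMP7. There PLAU (188 to 200 FPKM) and MMP14 (181 to 189 FPKM) overlapped, as did MMP1 and SERPINE2. PLAUR, below PLAT in every NC library, was above it in every sh-RAD51C library.

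Surface serine proteases and the ADAM family were divided. Of 12 tested genes among membrane serine proteases, convertases and their inhibitors, 6 were higher, 4 lower and 2 not called (median 0.08), which is 83.3% called against 49.4% of all genes tested. The secreted protease PRSS23 rose 1.95-fold to 25.3 ± 0.349 FPKM, and SPINT1, the inhibitor of matriptase and hepsin, rose 1.22-fold, while matriptase itself (ST14) had a log2 fold change of -0.06 and was not called. HTRA1, a secreted serine protease, and TMPRSS11E fell 1.77-fold and 2.41-fold. Among 9 tested ADAM and ADAMTS genes 2 were higher, 4 lower and 3 not called (median -0.13), or 66.7% called against the same 49.4%. ADAM9 rose 1.4-fold to 38.4 ± 1.32 FPKM, the sheddase ADAM17 fell 1.26-fold to 11.1 ± 0.389 FPKM, ADAMTS7 fell 1.35-fold and ADAM22 fell 1.41-fold.

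The profiles nearest to the 3 members most changed on the log2(FPKM + 1) scale were sought over the 6 libraries by root mean square difference in log2(FPKM + 1) after subtraction of the NC mean, among 11151 other genes. For PLAU they were F3, PLAC8 and DDAH1 (differences of 0.037, 0.041 and 0.045). F3 encodes tissue factor, the initiator of coagulation, and went from 31.3 ± 0.677 to 58.5 ± 2.07 FPKM. PLAC8 went from 2.30 to 5.26 FPKM in the mean and DDAH1 from 5.30 to 10.8 FPKM, steeper rises than that of PLAU from 104 to 195 FPKM. The added 1 FPKM shrinks the rises of PLAC8 and DDAH1, so both are nearer to PLAU on this scale than in FPKM. PLAT was nearest to C1R, a complement protease (0.052), SOD2 (0.063) and DDIT4 (0.067), and C1R went from 32.7 ± 2.14 to 14.3 ± 1.19 FPKM. MMP7 was nearest to PALM (0.048), IL36G (0.06) and NFATC4 (0.098). The added 1 FPKM shrinks the change of MMP7 on this scale, and MMP7 passed the filter through NC alone. In mean FPKM it went from 1.79 to 0.395, while PALM went from 3.24 to 1.10, IL36G from 7.45 to 3.32 and NFATC4 from 4.49 to 1.96. The nearness of these 3 genes to MMP7 therefore holds on the log2(FPKM + 1) scale only. These are descriptions of likeness in level change over the same 6 libraries.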

How the data were processed

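RNA sequencing values of 6 libraries, 3 named NC and 3 named sh-RAD51C, were deposited by the authors as FPKM per gene symbol, and each column was matched to its library by title. The submitters' processing notes name hg38 as the build and list DESeq2 and R 3.2.0 with no role given; aligner, counter, strandedness and annotation: not given in the sources used here.

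The 11152 of 23024 genes that averaged 1 FPKM or more were compared as log2(FPKM + 1) in limma 3.58.1 (R 4.3.3) with a variance trend, no covariate and Benjamini-Hochberg adjustment. Fold changes on that scale understate changes of low genes, so folds of mean FPKM stand beside them. The 9 members, the lists, the ratios and the motifs were chosen with earlier results of these data known. Genes named are RAD51C, the members, the called genes of the plasminogen and metalloprotease lists, up to 4 called genes of each further list by adjusted p, and 3 nearest profiles for each of 3 members. A gene of the plasminogen list is not reported here and was left out of the list's counts. Marker genes of epithelial and other cell types and genes named without a call were added after their values were seen.

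Whole reads were inferred because FPKM values are multiples of a step set by gene length and library total. The totals came from 309 to 321 genes per library whose RefSeq span gave 1 shared total. The next candidate, met by 248 to 257 genes, was exactly 2 times that total, and no candidate other than its multiples or fractions was met by more than 5. With these totals, 11151 of the 11152 genes tested gave whole reads within 0.001. Intervals of counting cover counting error only. Within a group, pairs of libraries differed beyond counting noise (a chi-square of 3.69 to 14.3 for each degree of freedom), so none was merged. On simulated libraries of 11119 genes with this comparison's depths, limma called 35 of 50 genes changed 1.2-fold, all 48 changed 1.5-fold and 11 of 10922 unchanged genes. The simulation gave every gene the same fixed dispersion in both groups and left 10922 of its 11119 genes unchanged, whereas 49.4% of genes tested were called in the data. The simulated rates therefore do not carry over directly to these data, least of all to genes with a wider spread, such as MMP1 (coefficient of variation 18.8% in NC). Alternatives covered the pseudocount, filter, scaling, variance trend, a replicate block, limma's voom on inferred reads and omission of each library. Positions and overlaps come from GENCODE 29 (GRCh38), and promoters from RefSeq (GRCh38.p14). Python 3.11.15, numpy 2.4.6, pandas 2.3.3 and matplotlib 3.10.9 were used otherwise.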

Additional observations from a re-analysis of the deposited data

How the results depend on the processing

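The calls of RAD51C and of the 8 called members kept their direction and their side of the threshold in every alternative run, with 3 members higher throughout and 4 to 6 lower. MMP7 could not be fitted at a mean of at least 5 FPKM, where it is filtered out. TIMP1 was called lower (log2 fold change -0.20) without sh-RAD51C replicate 1 only. At a mean of at least 5 FPKM, 1859 genes in all were called lower, and the membrane serine protease list had 2 lower. Without a filter that list had 9 lower and the ADAM and ADAMTS list 6 higher, from more genes tested. The plasminogen list had 7 higher in every alternative and 3 or 4 lower, and the metalloprotease list 3 to 5 higher and 5 to 9 lower. Libraries with the same replicate number were only weakly correlated in their deviations (0.19, 0.026 and 0.091), so pairing was not clear. NC 1 and NC 2 were closest to their own number, and NC 3 was closer to sh-RAD51C 2 (0.11) than to its own. With a replicate block 3 members were higher and 5 lower, and 2601 genes in all were higher and 2968 lower. Depth limits MMP7, at 12 to 21 inferred reads in sh-RAD51C.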
